A study of Mus musculus with 8 samples.

Results

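The 9 genes described here encode ligands, receptors and extracellular regulators of bone morphogenetic protein (BMP) signalling, and were followed in mouse bone marrow mesenchymal stem cells taken from the femur. They are Bmp1, Bmp2, Bmp4, Bmp6, Bmpr1a, Bmpr2, Acvr1, Grem1 and Nog, each found by its symbol in the deposited table, which lists 21899 genes. Cells of the EA group received ellagic acid, a polyphenol found in berries and nuts, at 10 µM over 48 h, and the control cells were kept for the same time with the solvent DMSO. Poly(A) RNA was sequenced in 4 libraries a group, and neither genotype, strain nor age is given in the labels. Nor do the labels say if replicates are distinct animals or cultures, and every p-value here is thus set against a library-to-library spread that could be technical alone.

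BMPs are secreted, dimeric growth factors of the TGF-beta superfamily. A BMP dimer brings together type I and type II receptor kinases on the cell surface, the type I kinase phosphorylates SMAD1, SMAD5 and SMAD9, and these move with SMAD4 to the nucleus. Secreted antagonists such as gremlin and noggin bind the ligands and keep them from their receptors. In bone marrow stroma this pathway is known above all for driving progenitors towards bone and cartilage cells.

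Library totals ranged from 14112519 to 17390200 reads, and 11777 genes had enough reads to be tested. Of these, 67.2% differed between EA and control with a Benjamini-Hochberg adjusted p below 0.05 in edgeR's quasi-likelihood test, 33.1% being higher and 34.2% lower with EA, and for 60.6% the 8 libraries did not overlap between the groups. A call by itself therefore sets a gene little apart in this data set. Levels are given as CPM, the counts per 1e6 reads after TMM scaling, or as the authors' FPKM, which also divides by gene length. With TMM scaling the median over the tested genes lies at a log2 fold change of −0.017, whereas with library totals it lies at −0.38, a shift of −0.36, and upper-quartile factors shift it by −0.16. Of 13 mesenchymal stromal markers 12 were tested, of which 7 were higher and 2 lower with EA on the TMM scale. Among them Col1a1 averaged 1001 FPKM in EA and 968 FPKM in control, and Ly6a 8.65 FPKM in EA and 31.3 FPKM in control, while Thy1 had only 7 reads in EA and 12 in control. The summed CPM of 11 haematopoietic markers, on library totals, was 52.6 to 57.0 in EA, against 68.0 to 85.7 in control. Its 2 most abundant genes went opposite ways, Lyz2 having 2830 reads in EA and 2411 in control and Cd14 533 in EA and 2391 in control. The pan-leukocyte gene Ptprc had 17 reads in EA and 16 in control. On the same scale the summed CPM of 6 osteoblast markers was 35.7 to 49.4 in EA, against 19.5 to 30.0 in control, with 3 of 5 tested genes higher (Ibsp, Sp7 and Alpl) and 2 lower (Dmp1 and Phex). The part of these other cell types in the results was not tested.

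Of the 9 genes, 6 had enough reads to be tested and all 6 passed the threshold, 4 of them higher with EA (Bmpr2, Acvr1, Bmpr1a and Bmp1) and 2 lower (Grem1 and Bmp4). Bmp2, Bmp6 and Nog were too sparse to be tested. The values of these 6 genes did not overlap between the groups on the TMM scale. On library totals Bmpr2, Acvr1, Grem1 and Bmp4 did not overlap either, but Bmpr1a and Bmp1 did. The share of all tested genes without overlap was taken on the TMM scale only, where it was 60.6%. The largest changes were in 2 receptor genes and 1 antagonist gene, in opposite directions.

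**Figure D1:**
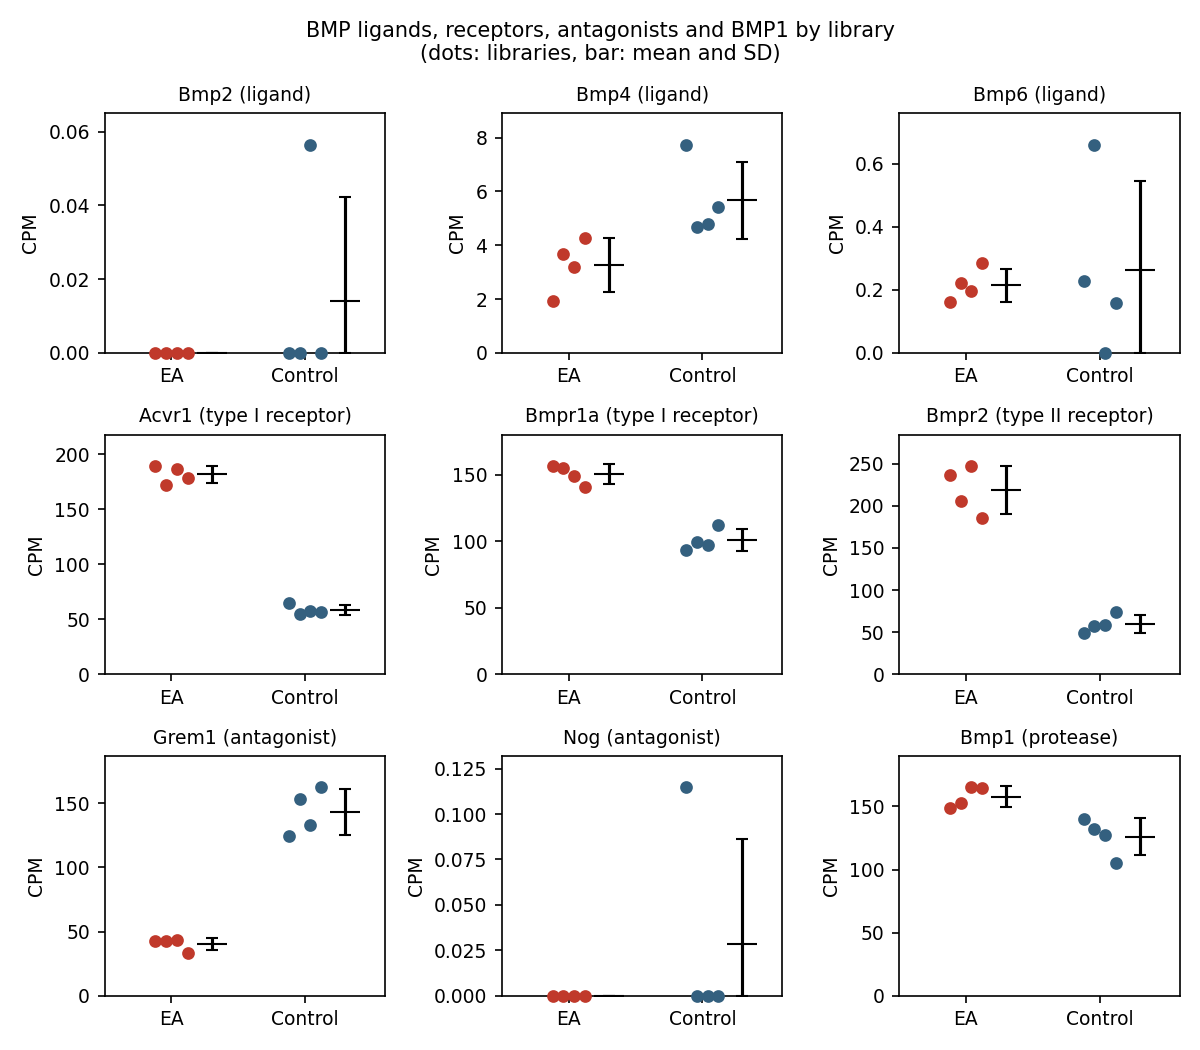
CPM after TMM scaling (vertical axes, each from 0) of the 9 genes in the 4 EA libraries (red, left) and the 4 control libraries (blue, right), with the mean and SD beside them in black. Acvr1, Bmpr1a, Bmpr2 and Bmp1 are higher in every EA library than in every control library, Grem1 and Bmp4 are lower, and Bmp2, Bmp6 and Nog stay below 1 CPM.

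Bmpr2 (ENSMUSG00000067336, chromosome 1, 59802559 to 59918173, plus strand, build GRCm39) encodes the BMP type II receptor, the constitutively active kinase that phosphorylates the type I partner. It had 236, 206, 247 and 185 CPM in EA libraries 1 to 4, against 48.6, 57.0, 58.9 and 73.8 CPM in control libraries 1 to 4. The lowest EA library was thus more than double the highest control library. The log2 fold change was 1.87 ± 0.13 (SE), a 3.67-fold rise with an edgeR adjusted p of 1.33e-07, and 94.6% of tested genes had a smaller log2 fold change in size. Bmpr2 was the most variable of the receptor genes within groups, with a coefficient of variation of 13.0% in EA and 17.6% in control. Its gene model in the table is 17983 bases long, so that its level per length is low for its reads, at 10.7 ± 1.42 FPKM in EA and 3.75 ± 0.652 FPKM in control (SD, n = 4 each).

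Acvr1 (ENSMUSG00000026836, chromosome 2, 58278656 to 58457169, minus strand), also called ALK2, encodes a type I receptor for BMPs of the BMP6 and BMP7 class. In people, activating mutations of this receptor cause fibrodysplasia ossificans progressiva, in which bone forms in soft tissue. It stood at 189, 172, 187 and 178 CPM in EA, against 64.5, 54.7, 57.7 and 56.9 CPM in control. The libraries of each group lay close together, with a coefficient of variation of 4.35% in EA and 7.21% in control. The rise was 3.11-fold, a log2 fold change of 1.64 ± 0.06 (SE, edgeR adjusted p = 5.04e-15).

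Bmpr1a (ENSMUSG00000021796, chromosome 14, 34132691 to 34225298, minus strand), or ALK3, encodes the type I receptor best known for binding BMP2 and BMP4. It had 157, 155, 150 and 141 CPM in EA, against 93.7, 99.4, 97.6 and 113 CPM in control. The groups were apart on this scale, but by less than for Acvr1 and Bmpr2. The rise was 1.49-fold (log2 fold change 0.58 ± 0.06, SE, edgeR adjusted p = 1.07e-07). With library totals it was 0.22 ± 0.06 on the log2 scale and still past the threshold (edgeR adjusted p = 0.00454), although the libraries then overlapped. In GENCODE vM21, which is on GRCm38, exons of the antisense gene Gm17110 overlap those of Bmpr1a over 290 of 6351 bases. Whether the counting used strand is not given in the sources used here, so its reads cannot be told apart from those of Bmpr1a.

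Orders between genes in FPKM rest on the deposited gene lengths. In mean CPM Bmpr2 was the highest of the 3 receptor genes in EA, at 219, with Acvr1 at 182 and Bmpr1a at 151. In control Bmpr1a was at 101 CPM, Bmpr2 at 59.6 CPM and Acvr1 at 58.4 CPM. In FPKM, the order of the 3 receptor genes differed between the groups. In EA libraries Acvr1 led with 33.2 ± 1.48 FPKM, followed by Bmpr1a with 20.9 ± 1.05 FPKM and Bmpr2 with 10.7 ± 1.42 FPKM. In control libraries Bmpr1a led with 18.0 ± 1.42 FPKM, ahead of Acvr1 with 13.7 ± 0.965 FPKM and Bmpr2 with 3.75 ± 0.652 FPKM (SD, n = 4 each). None of these neighbours overlapped within its group. The sum of the 3 genes was 64.8 ± 3.35 FPKM in EA and 35.5 ± 1.67 FPKM in control. Acvr1 made up 51.2 ± 1.43% of that sum in EA and 38.8 ± 3.47% in control, Bmpr1a 32.3 ± 1.36% in EA and 50.7 ± 2.14% in control, and Bmpr2 16.5 ± 1.40% in EA and 10.5 ± 1.40% in control.

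A ratio of 2 genes within a library does not depend on how libraries are scaled. The ratio of Acvr1 to Bmpr1a was 1.59, 1.46, 1.65 and 1.67 in the EA libraries, against 0.905, 0.724, 0.777 and 0.665 in the control libraries. Every EA library had more Acvr1 than Bmpr1a per length and every control library had less. The ratio of Bmpr2 to Bmpr1a was 0.532, 0.467, 0.584 and 0.464 in EA, against 0.183, 0.202, 0.213 and 0.231 in control. It was 2.47 times as high in EA on average, and the groups did not overlap. The ratio of Acvr1 to Bmpr2 was 3.13 ± 0.332 in EA and 3.76 ± 0.859 in control (SD, n = 4 each), and these groups did overlap.

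**Figure D2:**
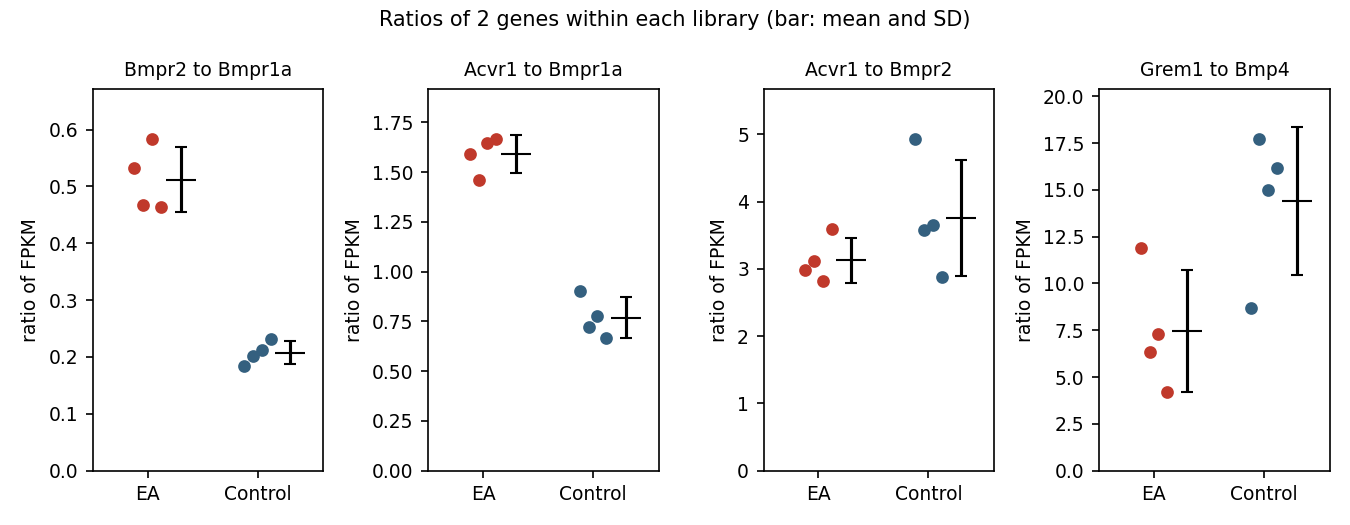
Ratios of the authors' FPKM of 2 genes within each library (vertical axes, each from 0) for the 4 EA libraries (red, left) and the 4 control libraries (blue, right), with mean and SD in black. Bmpr2 to Bmpr1a and Acvr1 to Bmpr1a are higher in all EA libraries, while Acvr1 to Bmpr2 and Grem1 to Bmp4 overlap between the groups.

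The stretches of 250 bases before the annotated start of the 2 receptor genes with the largest rise are shown because these genes rose together. They are RefSeq sequences of build GRCm38.p6, an older build than that of the counts, and a start used in these cells may be another one. Capitals mark matches, on either strand, to any of 5 motifs: GGCGCC, the GC motif bound by BMP-activated SMADs; CAGACA, a SMAD box; GGGCGG, the GC box; TATAAA, the TATA box; and CACGTG, an E-box. The Bmpr2 window is chr1:59764029-59764278, plus strand, and the Acvr1 window is chr2:58566829-58567078, minus strand, each printed 5′ to 3′.
Bmpr2: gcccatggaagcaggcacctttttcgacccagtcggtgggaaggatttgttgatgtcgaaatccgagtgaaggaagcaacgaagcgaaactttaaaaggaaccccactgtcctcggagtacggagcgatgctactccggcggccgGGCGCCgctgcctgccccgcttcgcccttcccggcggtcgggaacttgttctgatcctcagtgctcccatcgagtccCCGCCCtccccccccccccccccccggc
Acvr1: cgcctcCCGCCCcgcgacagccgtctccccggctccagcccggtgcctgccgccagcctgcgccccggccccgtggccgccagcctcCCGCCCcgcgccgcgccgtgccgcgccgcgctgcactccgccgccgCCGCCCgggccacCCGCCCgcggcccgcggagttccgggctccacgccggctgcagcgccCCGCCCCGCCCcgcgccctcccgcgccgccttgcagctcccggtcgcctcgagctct
The Bmpr2 window held 1 match to GGCGCC, 105 bases before the start, and 1 to GGGCGG. The Acvr1 window held 6 matches to GGGCGG, of which 1 pair overlaps by 1 base, and none to the other motifs. G or C made up 64.0% of the bases of the Bmpr2 window and 85.6% of the Acvr1 window. The median was 52.4% over 32851 promoter windows of this length. Among those windows, 9.59% held GGCGCC, 32.7% GGGCGG, 17.1% CAGACA, 12.4% TATAAA and 6.02% CACGTG. These shares were not taken from windows of like G and C content. A match describes these letters and is not evidence of binding. Of the 9 genes, 6 were in the promoter table (Bmpr2, Acvr1, Bmpr1a, Grem1, Bmp4 and Bmp6).

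Grem1 (ENSMUSG00000074934, chromosome 2, 113576509 to 113588991, minus strand) encodes gremlin 1, a secreted antagonist that binds BMP2, BMP4 and BMP7, and in mouse bone marrow it also marks a population of skeletal stem cells. It had 42.4, 42.9, 43.1 and 33.2 CPM in EA libraries 1 to 4, against 124, 154, 133 and 162 CPM in control libraries 1 to 4. All EA libraries were far below the control libraries, and EA library 4 was the lowest. Grem1 fell by 1.83 ± 0.10 on the log2 scale, that is, 3.54-fold (edgeR adjusted p = 3.21e-11), and 94.4% of tested genes had a smaller log2 fold change in size. Without EA library 4 the log2 fold change was −1.74 ± 0.09. Per length it was the highest of the 9 genes in control, at 39.1 ± 4.76 FPKM, and the fifth in EA, at 8.59 ± 1.04 FPKM, where its libraries overlapped those of Bmpr2 (SD, n = 4 each).

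The window before the start of Grem1, chr2:113758649-113758898 on the minus strand of GRCm38.p6, and that of Bmp4, chr14:46390670-46390919 on the minus strand, are printed likewise for the 2 genes that fell, with capitals at the same motifs.
Grem1: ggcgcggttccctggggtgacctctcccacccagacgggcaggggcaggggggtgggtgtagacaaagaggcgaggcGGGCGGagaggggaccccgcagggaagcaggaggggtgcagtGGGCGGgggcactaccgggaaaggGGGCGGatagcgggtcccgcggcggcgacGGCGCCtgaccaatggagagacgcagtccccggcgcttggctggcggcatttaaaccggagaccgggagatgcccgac
Bmp4: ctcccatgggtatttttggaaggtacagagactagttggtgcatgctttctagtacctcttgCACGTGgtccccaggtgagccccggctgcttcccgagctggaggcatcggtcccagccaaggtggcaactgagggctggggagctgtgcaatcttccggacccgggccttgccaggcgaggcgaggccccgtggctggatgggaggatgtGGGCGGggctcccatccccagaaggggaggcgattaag
G or C made up 72.0% of the bases of the Grem1 window and 63.2% of the Bmp4 window. The Grem1 window held 1 match to GGCGCC, 78 bases before the start, and 3 to GGGCGG. The Bmp4 window held none to GGCGCC, 1 to GGGCGG and 1 to CACGTG, 188 bases before the start. GGCGCC thus stood in the window of 1 gene that rose and 1 that fell of the 4 printed here. The Bmpr1a window, not printed, held 1 match to GGCGCC, and the Bmp6 window none.

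Nog (ENSMUSG00000048616, chromosome 11, 89191464 to 89193158, minus strand) encodes noggin, an antagonist that is itself induced by BMPs in osteoblasts. It had no read in any EA library, while in control it had 2 reads in library 1 and none in the others. Zero reads of 62921005 allow up to 0.0477 CPM in EA (3 counts over the group, counting error only), and the control level of 0.0321 CPM, both on library totals, lay below such a floor, so no fold is given and no difference was detectable at this depth.

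Among Bmp2, Bmp4 and Bmp6, only Bmp4 had a group mean above 1 FPKM, though its EA library 1 was at 0.757 FPKM. Bmp4 (ENSMUSG00000021835, chromosome 14, 46620977 to 46628126, minus strand) encodes a ligand of BMPR1A and a known inducer of bone formation. It had 24, 50, 49 and 60 reads in EA libraries 1 to 4, and 135, 78, 85 and 102 reads in control libraries 1 to 4. This came to 1.93, 3.68, 3.19 and 4.27 CPM in EA, against 7.74, 4.69, 4.80 and 5.44 CPM in control. The groups did not overlap, but the highest EA and the lowest control library were close, and both groups were spread more widely than for the receptors, with a coefficient of variation of 30.5% in EA and 25.1% in control. Bmp4 fell by 0.79 ± 0.22 on the log2 scale, 1.72-fold (edgeR adjusted p = 0.00357). Leaving out EA library 1 gave a log2 fold change of −0.61 and leaving out control library 1 gave −0.59, both still past the threshold (edgeR adjusted p = 0.0161 and 0.0249). The gene model of Gm15217 overlaps Bmp4 on the opposite strand, and it had no read in any library.

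Bmp6 (ENSMUSG00000039004, chromosome 13, 38529083 to 38684278, plus strand), a ligand that in liver controls iron balance through hepcidin, had 2, 3, 3 and 4 reads in EA, against 4, 11, 0 and 3 reads in control. Control library 2 held most of the control reads and control library 3 had none, so the EA values lay within the range of control. The ratio of EA to control reads, scaled by library totals, was 0.659 with an exact 95% interval of 0.290 to 1.45, which covers counting error only. Its 3′ end overlaps that of Txndc5 on the opposite strand, a gene with 247 ± 8.39 CPM in EA and 213 ± 6.51 CPM in control (SD, n = 4 each), and reads of the 2 genes cannot be told apart where strand was not used.

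Bmp2 (ENSMUSG00000027358, chromosome 2, 133394079 to 133404805, plus strand), the ligand used clinically to promote bone healing, had 0 reads in the EA libraries and 1 read in control, in library 3. On library totals the floor was 0.0477 CPM in EA and 0.0482 CPM in control. Neither group rose above it, so Bmp2 was not detectable at this depth.

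The antagonist Grem1 was set against Bmp4, the only tested ligand gene of the 9. Their ratio was 11.9, 6.32, 7.32 and 4.22 in the EA libraries, against 8.70, 17.7, 15.0 and 16.2 in the control libraries. The mean was lower in EA, at 7.45 ± 3.25 against 14.4 ± 3.96 in control (SD, n = 4 each), but EA library 1, with the fewest Bmp4 reads, overlapped control library 1, with the most. Grem1 therefore stayed above Bmp4 per length in all 8 libraries.

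Bmp1 (ENSMUSG00000022098, chromosome 14, 70711998 to 70757674, minus strand) is a BMP by name only. It encodes a secreted metalloprotease of the tolloid family that trims procollagens and cleaves the BMP antagonist chordin. It had 149, 152, 165 and 165 CPM in EA, against 140, 132, 127 and 105 CPM in control. The gap between the lowest EA and the highest control library was small. The log2 fold change was 0.32 ± 0.07, a 1.25-fold rise on the TMM scale (edgeR adjusted p = 0.000742), and 42.7% of tested genes had a smaller one in size. This rise depended on the scaling. With library totals the log2 fold change was −0.040 ± 0.074 (edgeR adjusted p = 0.630), and in FPKM the groups overlapped, at 15.7 ± 0.832 in EA and 16.1 ± 1.91 in control (SD, n = 4 each).

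**Figure D3:**
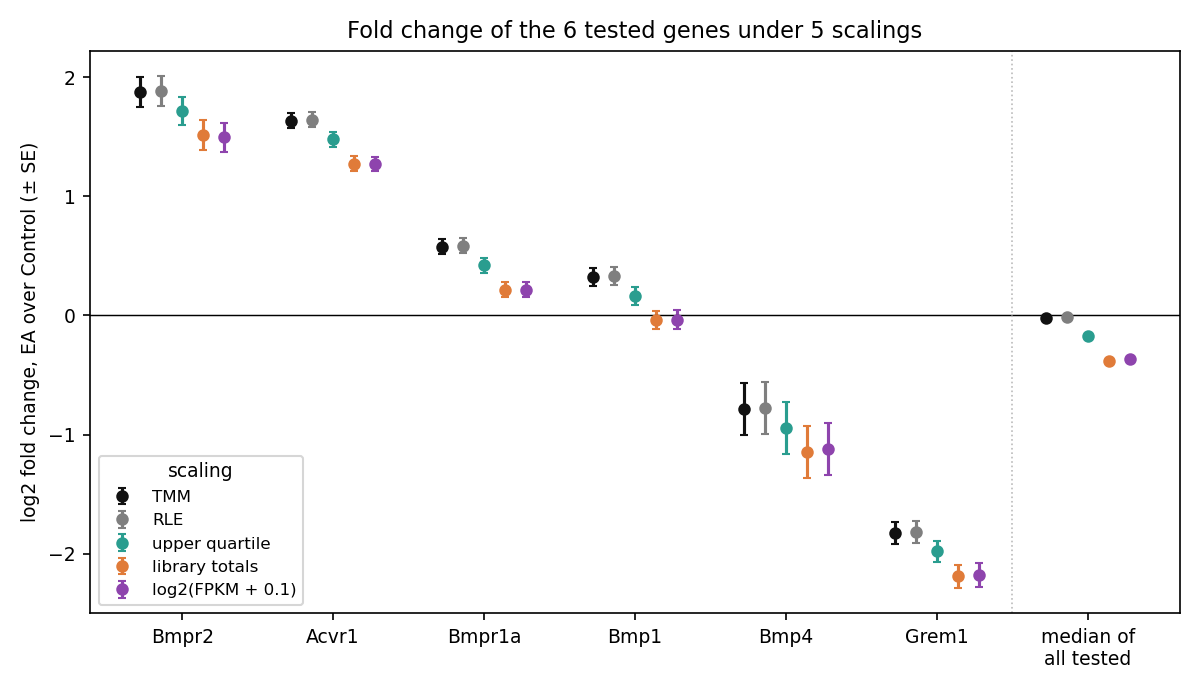
Log2 fold change of EA over control with its SE (vertical axis) for the 6 tested genes under TMM, RLE, upper-quartile and library-total scaling and on log2(FPKM + 0.1), with the median of all tested genes at the right. A change of scaling moves all genes by about the same amount, and library totals and FPKM take Bmp1 across 0 and leave the other 5 on their side.

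**Figure D4:**
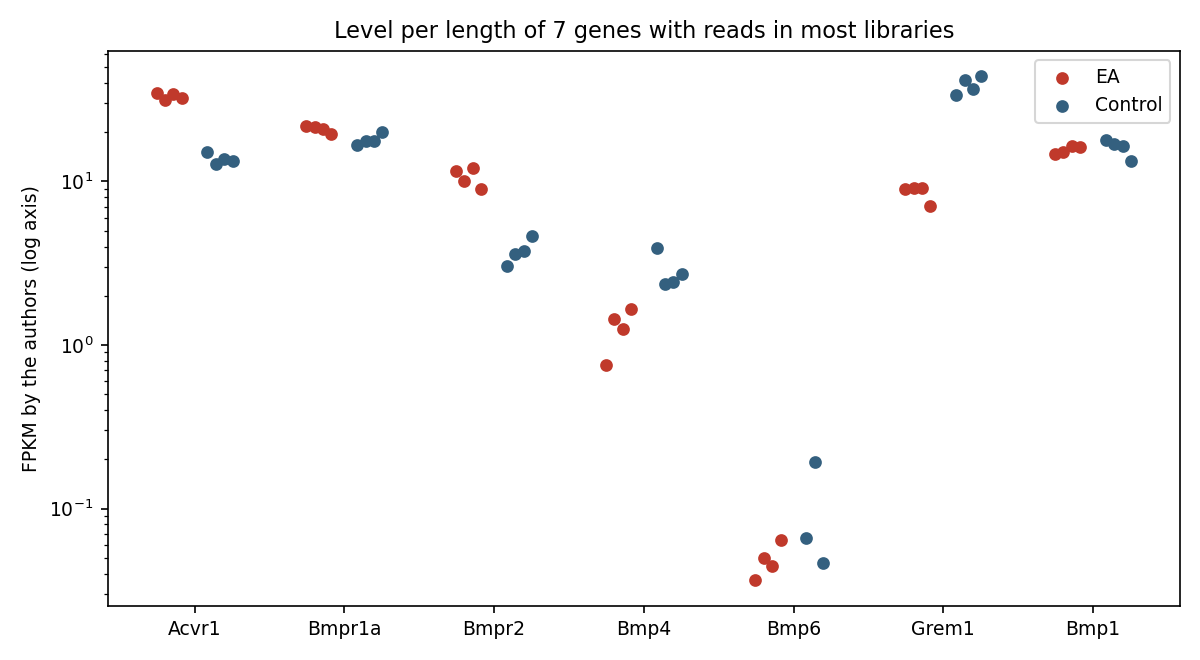
The authors' FPKM (vertical axis, log scale) of 7 of the genes in the 4 EA libraries (red, left of each pair) and the 4 control libraries (blue), with the control library that had no Bmp6 read left out and Bmp2 and Nog not drawn. Grem1 is the highest gene in control and Acvr1 the highest in EA, while Bmp4 lies near 1 FPKM in EA and Bmp6 below 0.2 FPKM in both groups.

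Over all 9 genes the order by FPKM in EA was Acvr1, Bmpr1a, Bmp1, Bmpr2, Grem1, Bmp4 and Bmp6, with Bmp2 and Nog at 0. In control it was Grem1, Bmpr1a, Bmp1, Acvr1, Bmpr2, Bmp4, Bmp6, Nog and Bmp2. In EA only Bmpr2 and Grem1 overlapped as neighbours with reads. In control the overlapping neighbours were Bmpr1a with Bmp1, Bmp1 with Acvr1, Bmpr2 with Bmp4, and the last 3 genes with each other in turn. The 3 receptor genes of the 9 and Bmp1 each exceeded Bmp4 per length in group mean. In EA the Bmp4 mean of 1.28 ± 0.388 FPKM was below that of all 3 receptor genes.

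The genes whose profile over the 8 libraries came closest to Bmpr2, by the root mean square difference of centred log2 CPM, were Tlcd3a at 0.070, Lpcat2 at 0.12 and Rps6ka5 at 0.13. The median gene was at 0.98. For Grem1 they were Nr1d2 at 0.093, Rab30 at 0.11 and Prl2c2 at 0.11, with a median of 0.93. The measure takes in the difference between the groups, and 39 genes lay within 0.2 of Bmpr2 and 44 of Grem1.

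Other genes of the pathway were taken from lists of ligands, receptors, extracellular regulators, processing enzymes and intracellular partners. Of 83 listed genes 49 were tested, of which 33 were higher and 5 lower with EA, with a median log2 fold change of 0.70 beside −0.017 over all tested genes. Some genes, such as Smad9, stand in more than 1 list and are counted once here. On library totals the lists divided into 25 higher and 15 lower, beside 1940 higher and 7196 lower over all tested genes. With upper-quartile factors they divided 28 to 7, beside 2830 to 5338 over all tested genes.

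Of 16 further BMP and GDF genes, 15 had at most 21 reads in EA and 28 in control. Among these sparse genes Bmp8a had 21 reads in EA and 2 in control, and Gdf3 7 in EA and 0 in control. In the other direction, Gdf6 had 19 in EA and 28 in control and Gdf9 17 in EA and 27 in control. With no count filter, 12 genes of this list were tested, of which 2 were called higher and 1 lower. With the filter only Gdf11, which signals through activin receptors, was tested. It was 1.22-fold lower, at 23.3 ± 1.61 CPM in EA and 28.4 ± 1.77 CPM in control (edgeR adjusted p = 0.00577). Bmp7, the other ligand most used for bone repair and chosen after its values were seen, had 1 read in each group.

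Of 8 tested receptor and co-receptor genes 6 rose and 1 fell on the TMM scale (median log2 fold change 0.46). Over all tested genes 33.1% were higher and 34.2% lower. On library totals 2 of the 8 were higher and 4 lower, where the median of all tested genes was −0.38. The libraries of 5 of the 8 did not overlap on the TMM scale, beside 60.6% of all tested genes. Bambi, 1 of the 6, had only 78 reads in EA and 52 in control, with overlapping libraries (edgeR adjusted p = 0.0428). The BMP co-receptor gene Rgmb rose 1.72-fold, to 30.9 ± 1.46 CPM in EA against 17.9 ± 3.01 CPM in control (edgeR adjusted p = 1.14e-06), while its paralogue Rgma was 1.36-fold lower (edgeR adjusted p = 0.000333). Acvr1b, an activin type I receptor gene, rose 1.63-fold (edgeR adjusted p = 3.44e-06). Neo1, which encodes neogenin, the receptor of the RGM proteins, rose 1.17-fold on the TMM scale (edgeR adjusted p = 0.000831) but was lower on library totals, at a log2 fold change of −0.13. Among other type I and type II receptor genes, chosen after their values were seen, Bmpr1b had 5 reads in EA and 19 in control, Acvrl1 8 in EA and 16 in control, and Acvr2b 2 in EA and 3 in control. Acvr2a, the other type II receptor gene that was tested, was at 16.4 ± 1.26 CPM in EA and 15.4 ± 1.64 CPM in control, with a log2 fold change of 0.09 ± 0.10 (edgeR adjusted p = 0.444), but was lower on library totals at −0.27 ± 0.10 (edgeR adjusted p = 0.0243).

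Of 12 further tested antagonist and modulator genes 6 rose and 2 fell (median 0.62), where 33.1% of all tested genes were higher and 34.2% lower. On library totals 6 were higher and 4 lower (median 0.25), where the median of all tested genes was −0.38. The libraries of 8 of the 12 did not overlap on the TMM scale, beside 60.6% of all tested genes. Nbl1, which encodes DAN, an antagonist of the gremlin family, rose 5.66-fold to 115 ± 4.34 CPM in EA, against 20.3 ± 2.02 CPM in control (edgeR adjusted p = 7.72e-17). Follistatin (Fst), which binds activins and more weakly BMPs, rose 3.53-fold to 197 ± 9.97 CPM in EA, against 55.7 ± 5.27 CPM in control (edgeR adjusted p = 4.06e-15). Smoc1, a matrix protein gene whose product restrains BMP signalling in frog embryos, had 32.2 ± 6.11 CPM in EA and 0.383 ± 0.185 CPM in control (edgeR adjusted p = 4.29e-15). The falling genes were Crim1, 1.49-fold lower (edgeR adjusted p = 5.03e-06), and Dand5, 1.73-fold lower at 1.51 ± 0.393 CPM in EA, against 2.64 ± 0.645 CPM in control (edgeR adjusted p = 0.0125), a call that was lost without control library 3 (edgeR adjusted p = 0.0585). Chosen after their values were seen, Chrdl1 rose 2.09-fold and, at 85.2 ± 2.32 FPKM in EA and 52.5 ± 2.21 FPKM in control, was above Grem1 per length in both groups. Chordin (Chrd) was at 10.5 ± 1.32 CPM in EA and 11.1 ± 0.792 CPM in control, with a log2 fold change of −0.07 ± 0.12 (edgeR adjusted p = 0.612), but was lower on library totals at −0.43 ± 0.12 (edgeR adjusted p = 0.00268).

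Proprotein convertases cut precursor proteins, and some of them mature BMP precursors. Of their genes, Furin rose 3.29-fold, to 308 ± 3.55 CPM in EA against 93.4 ± 6.56 CPM in control (edgeR adjusted p = 6.95e-16). Pcsk7 rose 1.20-fold on the TMM scale (edgeR adjusted p = 0.00456) and had a log2 fold change of −0.096 on library totals. Pcsk4 was 3.72-fold lower, with 20 reads in EA and 97 in control (edgeR adjusted p = 0.00113). Too sparse to be tested were Pcsk5, with 0 reads in EA and 7 in control, and Pcsk6, with 2 in EA and 12 in control. Beside Bmp1, the tolloid genes Tll1 had 0 reads in EA and 1 in control, and Tll2 4 in EA and 9 in control. Pcolce2, an enhancer of procollagen cleavage by BMP1, rose 2.70-fold to 4.91 ± 0.838 CPM in EA, against 1.81 ± 0.479 CPM in control (edgeR adjusted p = 7.92e-06). Its much more abundant paralogue Pcolce was at 544 ± 9.49 CPM in EA and 501 ± 54.5 CPM in control, with a log2 fold change of 0.12 ± 0.07 (edgeR adjusted p = 0.110), but was lower on library totals at −0.24 ± 0.07 (edgeR adjusted p = 0.00265).

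Inside the cell, 9 of 12 tested SMAD genes and SMAD regulators rose and none fell on the TMM scale (median 0.92). Over all tested genes 33.1% were higher and 34.2% lower. On library totals 6 of the 12 were higher and 3 lower, where the median of all tested genes was −0.38. Smad7, an inhibitory SMAD of both BMP and TGF-beta signalling, rose 5.34-fold to 134 ± 8.88 CPM in EA, against 25.1 ± 0.756 CPM in control (edgeR adjusted p = 2.93e-17). Smad6, an inhibitory SMAD that targets BMP receptors, was at 83.5 ± 6.88 CPM in EA and 5.14 ± 1.03 CPM in control, and Smad9 at 39.9 ± 3.25 CPM in EA and 6.42 ± 0.996 CPM in control (edgeR adjusted p = 6.98e-17 and 1.75e-14). Of 15 tested BMP response genes 13 rose and none fell (median 2.42), where 33.1% of all tested genes were higher and 34.2% lower. The weakest of these calls was Bambi, with 78 reads in EA and 52 in control and overlapping libraries (edgeR adjusted p = 0.0428). With an adjusted p below 0.01 or with upper-quartile factors 12 of the 15 rose, as in some runs that left out 1 library. On library totals 12 of the 15 were higher and 1, Msx1, was lower. Smad6, Smad7 and Smad9 are counted in both the SMAD list and the response list, and Bambi in the receptor list and the response list. The 2 not called on the TMM scale were Id4 and Msx1. Their log2 fold changes were 0.10 ± 0.14 and −0.35 ± 0.23 (edgeR adjusted p = 0.576 and 0.180). Atoh8, a transcription factor gene induced by BMPs, rose 29.4-fold to 154 ± 12.1 CPM in EA, against 5.23 ± 0.449 CPM in control, and Id3 11.1-fold to 219 ± 16.8 CPM in EA, against 19.7 ± 2.14 CPM in control (edgeR adjusted p = 3.33e-20 and 1.84e-18). Dlx5, a homeobox gene of osteoblast differentiation, rose 5.34-fold (edgeR adjusted p = 2.03e-17). Sp7, also an osteoblast marker above, stands in this list too. Several of these genes also respond to TGF-beta, and whether they followed either signal was not tested. The list was chosen with earlier results of these data known.

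**Figure D5:**
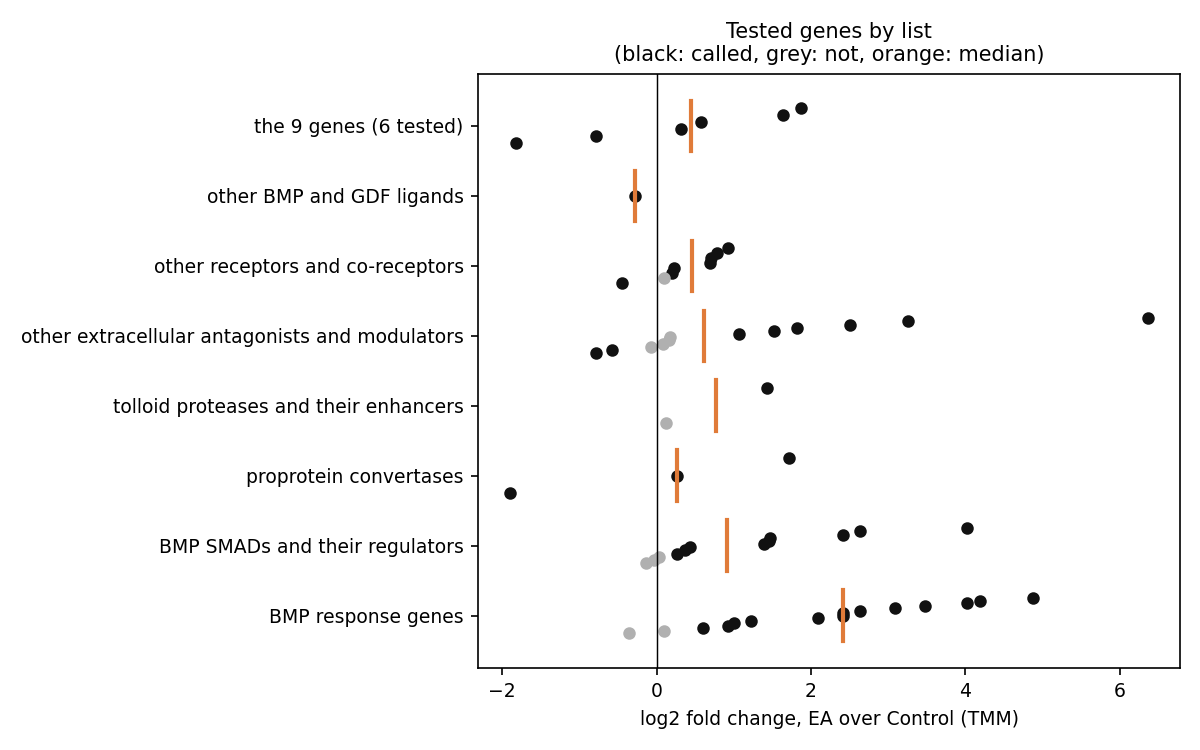
Log2 fold change of EA over control after TMM scaling (horizontal axis) of each tested gene, by list (rows), with called genes in black, others in grey and the list median as an orange line. Grem1 and Bmp4 are the 2 lowest of the 6 tested genes, at −1.83 and −0.79, while the antagonist list reaches 6.36 (Smoc1) and the response genes have a median of 2.42.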

How the data were processed

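Poly(A) RNA of 4 EA and 4 control libraries was sequenced on an Illumina NovaSeq. The read count per gene in the deposited table was made by the authors, with cutadapt 1.15, HISAT2 2.0.5 and mouse build GRCm39 named in the submitters' processing notes. No source used here gives the read counter, whether it used strand, or the release of the annotation. The authors' FPKM divides each count by the deposited gene length and the library's total count.

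Counts were tested in R 4.3.3 with edgeR 4.0.16 (TMM factors, default count filter by group, robust quasi-likelihood test with EA as the only factor, Benjamini-Hochberg adjustment over 11777 genes). CPM is scaled by TMM unless library totals are named. SEs are the log2 fold change divided by the square root of F. Intervals for sparse genes are exact at 95% and floors are 3 counts. Total counts of 14112519 to 17390200 per library set the precision. The test was run on simulated counts in which few genes changed, a setting that cannot check the scaling of these data. The genes and lists were chosen with earlier results of these data known. Up to 3 called genes per direction and list were named by p, and the 3 nearest profiles used a prior count of 2. Alternatives used limma 3.58.1, DESeq2 1.42.0 and other scalings, filters and library sets. Figures used matplotlib 3.10.9.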

Additional observations from a re-analysis of the deposited data

Results flagged for a closer look

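Dixon's test at 95% set 1 library apart from the other 3 of its group in 5 of 66 groups examined, of which chance flags about 1 in 20. Grem1 had 33.2 CPM in EA library 4, below the other EA libraries at 42.4 to 43.1 CPM, which widens its distance from control. Gdf11 had 20.9 CPM in EA library 2, against 24.0 to 24.3 CPM in the others. Furin had 313 CPM in EA library 1, against 305.7 to 306.0 CPM in the others. Bmp2 had 0.0565 CPM in control library 3 and Nog 0.115 CPM in control library 1, each from 1 or 2 reads. The other control libraries had 0 reads of these genes, a pattern that this test always flags.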

How the results depend on the processing

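Bmpr2, Acvr1, Bmpr1a, Grem1 and Bmp4 kept their direction and their call under all alternatives run. The 9 genes divided into 4 higher and 2 lower, or 3 and 2 with upper-quartile factors, library totals and both FPKM scales, where Bmp1 lost its call. Its log2 fold change was 0.16 with upper-quartile factors, −0.040 with library totals, −0.033 on log2(FPKM + 1) and −0.034 on log2(FPKM + 0.1). In the same order of the last 3 settings, Neo1 was at −0.13, −0.12 and −0.13 and Pcsk7 at −0.096, −0.084 and −0.096. Over all genes, 3893 were higher and 4027 lower, against 1940 and 7196 with library totals, 1920 and 7160 on log2(FPKM + 1), 1923 and 7167 on log2(FPKM + 0.1), and 2830 and 5338 with upper-quartile factors. The other pathway genes called lower numbered 5, against 15 with library totals or either FPKM scale and 3 where CPM above 1 was required in all 8 libraries, since 2 had too few reads. Leaving out 1 library left 4 higher and 2 lower of the 9 genes, 3721 to 4012 higher and 3794 to 3957 lower of all. Libraries of the same number shared no deviation (r from −0.021 to 0.027), so the numbers were not taken to pair them. A replicate block gave 4 higher and 2 lower of the 9 genes, and 3834 and 3960 of all. Bmp2, Bmp6 and Nog are limited by depth.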
